A study of Mus musculus with 72 samples.

Results

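Across spleen, liver, lung, kidney and heart, 92 array probes had a lower median in mice with cecal ligation and perforation (CLP) than in sham-operated mice in every organ. They were chosen by that difference: the CLP median lay at least 0.5 below the sham median on the log2 scale in all 5 organs, the sham median exceeded 7 log2 in all 5, and no organ's sham median stood 3 or more above all others. A further 5 named probes were left out, 2 of which met the other limits. The 92 are 2.32% of the 3963 probes that met both limits on the sham level, out of 22504 probes whose table rows follow the header. For comparison, 85 of the 3963 had a CLP median at least 0.5 above the sham median in all 5 organs. Of the 92 probes, 81 carry a gene symbol and 11 do not; the 81 stand for 75 genes, of which 6 (3830406C13Rik, Cd74, Copz2, Ganc, Nagk and Nqo2) have 2 probes each. Because CLP minus sham chose the members, it is given below as a description without a test. The members nearest the limit were Aamdc (-0.5009 in the spleen) and H2-DMb1 (-0.5001 in the heart); just outside it were a second Arl3 probe, ILMN_1238801 (-0.4999 in the lung), and Ulk2 (-0.4978 in the heart).

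The arrays came from female C57Bl/6J mice, and organs were collected 28 hours after surgery. MSC mice had CLP, in which the cecum is tied and pierced so that gut bacteria enter the abdomen, and 6 hours later received 250000 mesenchymal stem cells from male C57Bl/6J mice in 100 µL through a cannula. The stem cells were grown from a frozen vial and used at passages 8 to 11. CLP mice had the same injury and sham mice an operation without it, and both received saline. The stated purpose was to find molecular changes that go with less inflammation in injured mice given the cells. There were 72 arrays, with 4 spleens per arm and, for the other organs, 5 arrays each per arm. Liver, lung, kidney and heart came from 15 numbered mice, although the design text gives 4 animals per group. The mouse number makes the mouse the replicate in these 4 organs, whereas the spleens have their own labels and were not tied to them.

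Several members belong to antigen presentation. MHC class II molecules show peptides from engulfed material to helper T cells; they are pairs of an alpha and a beta chain, held by the invariant chain Cd74 until H2-DM loads the peptide. They are most abundant in B cells, dendritic cells and macrophages, and interferon gamma raises them in many cells through the coactivator CIITA, which acts at promoters with an X box and a Y box. Other members work in detoxification and intermediary metabolism, much of which takes place in liver and kidney, and many more are broadly expressed genes of membrane traffic, cytoskeleton and RNA processing. In whole organs, fewer cells of a type and less RNA per cell cannot be told apart.

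Promoters of 2 antigen presentation members are shown because both genes lie in the MHC region of chromosome 17 and differ in the liver values below. Sequences are RefSeq promoters on GRCm38.p6, 250 bases before to 50 after the gene start, written 5′ to 3′ on the gene's strand. Capitals in H2-DMb1 (chr17:34152941-34153240, plus strand) mark a match to the X box consensus and a match to the Y box core ATTGG. Capitals in Psmb9 (chr17:34187281-34187580, minus strand) mark a match to the X box consensus on the other strand; its attgg stays in lower case because it does not follow an X box within 15 to 25 bases.
H2-DMb1 promoter: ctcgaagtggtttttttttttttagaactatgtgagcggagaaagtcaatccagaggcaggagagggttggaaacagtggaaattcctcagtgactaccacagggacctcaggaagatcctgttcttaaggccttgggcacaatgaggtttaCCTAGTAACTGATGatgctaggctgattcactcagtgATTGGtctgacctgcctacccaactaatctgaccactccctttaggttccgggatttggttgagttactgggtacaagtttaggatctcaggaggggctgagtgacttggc
Psmb9 promoter: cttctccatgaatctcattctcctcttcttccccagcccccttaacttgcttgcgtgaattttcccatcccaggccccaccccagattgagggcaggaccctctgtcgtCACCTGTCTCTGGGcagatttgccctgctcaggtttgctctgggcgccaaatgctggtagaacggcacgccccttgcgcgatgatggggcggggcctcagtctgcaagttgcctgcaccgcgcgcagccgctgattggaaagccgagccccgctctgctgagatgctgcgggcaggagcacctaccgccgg
A promoter was found for 64 of the 75 member genes. None was found for H2-Ab1 or Cd74, so these class II genes were not searched. The X box consensus, searched on both strands, stood in a promoter of 3 of them (H2-DMb1, Pcbd2 and Psmb9), against 4.53% of the 27025 genes of the table, a gene being counted once when any of its promoters holds a match. ATTGG stood in 35 of the 64, against 41.1% of all genes. An X box followed within 15 to 25 bases by ATTGG stood in 19 of all genes (0.07%) and in 1 of the 64, H2-DMb1. The antioxidant response letters TGACNNNGC stood in 13 of the 64, against 14% of all genes. A match is a description of the letters and does not show binding.

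Some libraries bear on every result. In the spleen, the 2 deposited tables disagree on 2 arrays: the values named MSC8 in the text table are named sham s3 in the series matrix, and those named sham s2 in the text table are named MSC8 there. The text table's names were used. With the series matrix names the rule gives 90 probes, 89 of them the same. CLP mouse 107C had the highest median of the members among CLP mice in all 4 organs (-0.42 in liver, -0.22 in lung, -0.16 in kidney and -0.37 in heart), and without it the rule gives 121 probes, 85 of them the same. Sham heart 78S lay at -0.46, below the other sham hearts, and its T cell markers averaged 9.02 log2, against 4.80 to 6.16 in the other sham hearts. The organ was taken from the source name of each array; the tissue field of the labels names another organ for 62 of the 72. All 22 organ marker genes checked were highest in the organ of the source name.

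In CLP mice the members were lowest relative to sham in the liver. The median member lay 0.91 log2 below sham in spleen, 1.26 in liver, 0.93 in lung, 1.10 in kidney and 0.81 in heart, as differences of arm medians, while the 3963 eligible probes had medians of -0.04, 0.11, 0.02, 0.05 and -0.03. The difference was deepest in liver for 44 members, in kidney for 20, in spleen for 14, in lung for 11 and in heart for 3. At least a 2-fold lower median was seen for 63 members in liver, 53 in kidney, 43 in spleen, 41 in lung and 22 in heart. Only 7 members reached 2-fold in all 5 organs: Pcbd2, Gstt1, Nrep and 4 probes without a symbol.

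**Figure D1:**
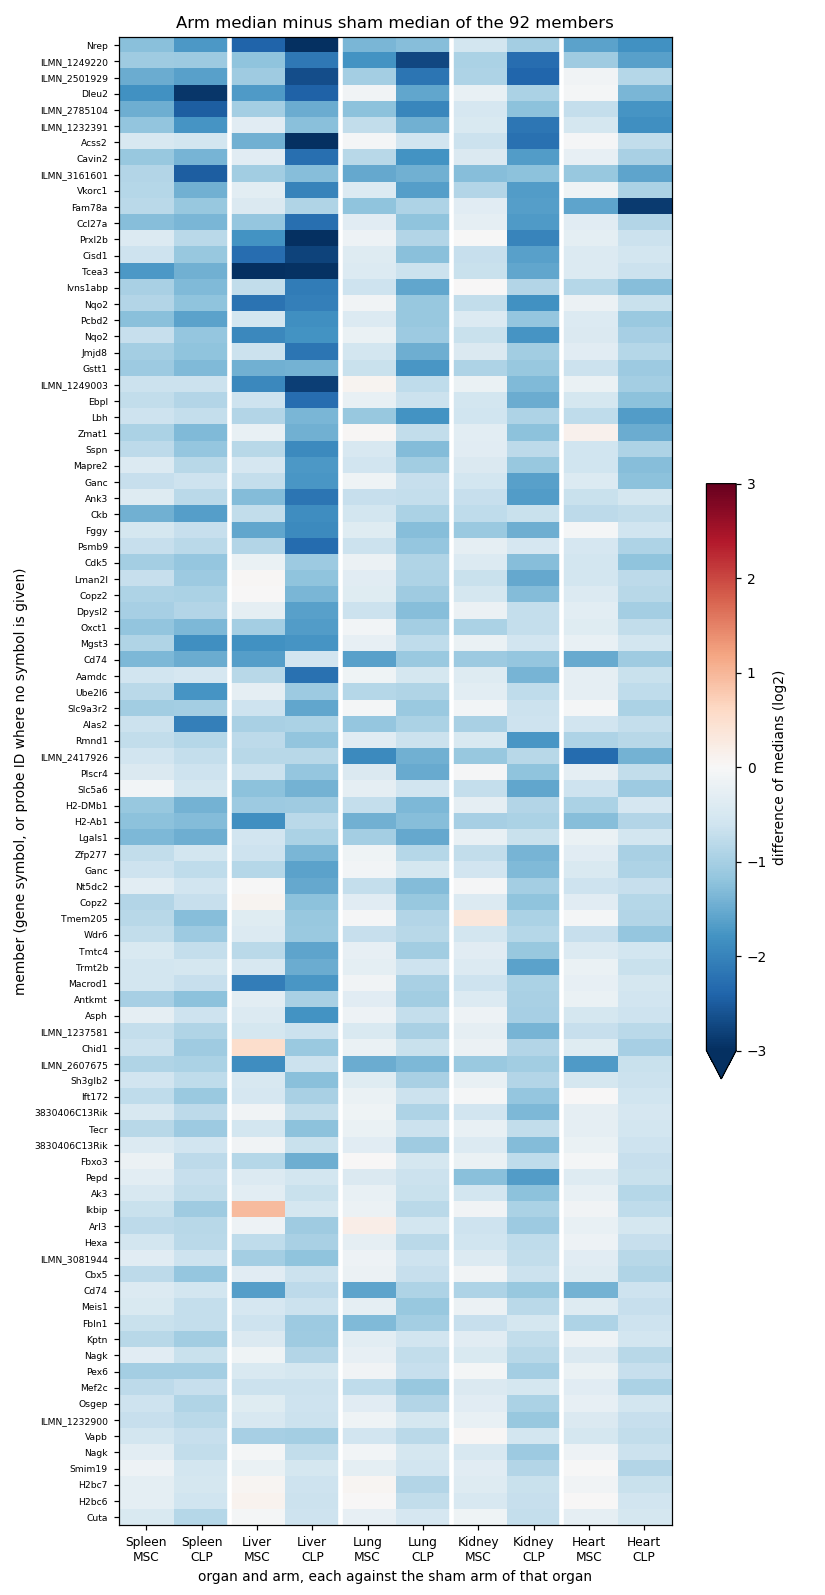
Each of the 92 rows is a member, sorted by the mean over the organs of its CLP minus sham differences. Each pair of columns is an organ with the MSC arm left of the CLP arm. Colour gives the arm median minus the sham median (log2, cut at -3 and 3). All CLP cells are blue by choice of the members, most MSC cells are paler, and Ikbip in the liver has the deepest red of the few red MSC cells.

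Other probes of the same genes mostly lay in the same direction. The array carries 101 other probes for 47 of the member genes, 49 of them above the detection floor in all 5 organs. Of these 49, the CLP mean lay below the sham mean in all 5 organs for 40 and above it in all 5 for 0. Medians over the other probes were -0.57 in spleen, -0.82 in liver, -0.62 in lung, -0.70 in kidney and -0.53 in heart (log2). They were measured on the same RNA as the members, so they check the probes and are not further animals. For the genes with 2 member probes, the pair differed by at most 0.32 log2 in any organ, except Cd74 (-1.48 and -0.56 in the spleen). H2bc6 and H2bc7 encode near-identical histones, and their probes cannot be told apart with certainty.

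In MSC mice the members lay mostly between CLP and sham. The median member was below sham by 0.72 log2 in spleen, 0.63 in liver, 0.34 in lung, 0.43 in kidney and 0.38 in heart. The MSC median stood between the CLP and sham medians for 82 members in spleen, 74 in liver, 77 in lung, 81 in kidney and 79 in heart. It was above the CLP median in all 5 organs for 62 members and below it in all 5 for 0. Choosing probes by low CLP and high sham arrays tilts MSC minus CLP upward and MSC minus sham downward, so these counts partly follow from the choice.

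**Figure D2:**
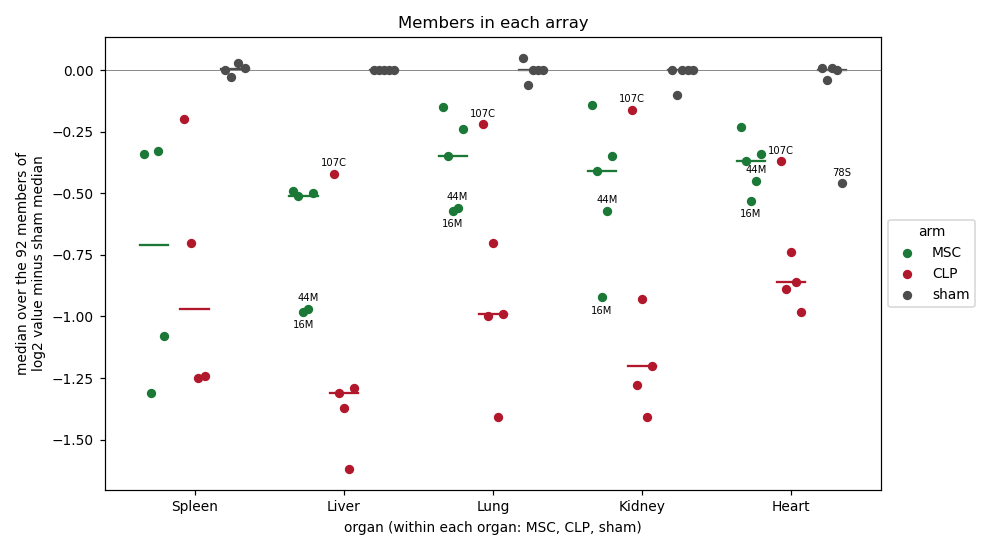
Each point is an array and gives the median over the 92 members of its log2 value minus the sham median of the organ; bars are arm medians. CLP mouse 107C stands highest among CLP mice in the 4 organs of the numbered mice, MSC mice 16M and 44M stand lowest among MSC mice, and sham heart 78S lies at -0.46.

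The order of mice was similar from organ to organ. MSC mouse 100M had the highest median of the members in all 4 organs (-0.49, -0.15, -0.14 and -0.23 in liver, lung, kidney and heart). MSC mice 16M and 44M were the 2 lowest in all 4, at -0.98 and -0.97 in liver, -0.57 and -0.56 in lung, -0.92 and -0.57 in kidney, and -0.53 and -0.45 in heart. The CLP mice other than 107C lay between -1.62 and -1.29 in the liver. In liver, lung, kidney and heart, 107C was the only CLP mouse above the lowest MSC mouse, whereas in the spleen MSC8 at -1.08 lay within the range of the CLP arrays (-1.25 to -0.20) and MSC5 at -1.31 below it.

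A probe counts as called here when its Benjamini-Hochberg adjusted p in limma, over all probes tested in the organ, was below 0.05. Between MSC and sham, the called members were lower in MSC for 15 in spleen (3.68% of all tested probes were called lower), 38 in liver (9.13%), 20 in lung (4.91%), 10 in kidney (3.27%) and 6 in heart (0.850%). On each mouse's mean over the 4 organs other than the spleen, 35 members were lower in MSC (4.64%). High sham arrays chose the members, which tilts this difference downward. The spleen count was 3 without the 2 arrays whose arm differs between the tables. It was 0 with the series matrix names.

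Between MSC and CLP, 20 members were higher in MSC livers (3.03% of all tested probes) and 43 on the mean of the 4 organs (6.18%). None was called higher in the spleen (0% of all probes), lung (0%), kidney (0%) or heart (0.0113%) by limma; at an unadjusted p below 0.05 in either direction there were 1, 67, 53 and 45 members, against 3.87%, 26%, 27.1% and 17.4% of all probes. The median fitted MSC minus CLP difference of the members was 0.14 in spleen, 0.59 in liver, 0.52 in lung, 0.54 in kidney and 0.39 in heart, against medians within 0.02 of 0 over all tested probes. Low CLP arrays chose the members and enter this comparison, so these counts and medians are tilted upward. Without CLP mouse 107C the numbers called were 57 in liver, 70 in lung, 71 in kidney, 32 in heart and 80 on the mean of 4 organs. The liver count was 0 when any other liver array was left out, and the mean-of-4 count was 0 when any mouse other than 107C (80), MSC 16M (52) or sham 78S (39) was left out. The calls between MSC and CLP named below therefore sit close to the threshold, which their adjusted p shows.

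In the liver, 3 of the 4 class II probes, those of H2-Ab1 and Cd74, were lower in MSC than in CLP. H2-Ab1, the beta chain of the class II molecule I-A, measured 6.82, 6.95, 7.10, 7.36 and 7.49 log2 in MSC livers, against 7.77, 8.10, 8.15, 8.23 and 9.21 in CLP livers and 8.12, 8.70, 8.95, 9.14 and 9.52 in sham livers. Every MSC liver lay below every CLP and sham liver, whereas CLP and sham livers overlapped. The difference MSC minus CLP was -1.15 (SE 0.27, n = 5 per arm, limma adjusted p 0.0419), and MSC minus sham was -1.74 (adjusted p 0.000316). Cd74, the invariant chain, gave the same picture with probe ILMN_1221817, at 8.35, 8.48, 8.74, 8.81 and 9.14 log2 in MSC livers, against 9.42, 9.58, 9.61, 9.95 and 10.67 in CLP livers and 9.43, 9.74, 10.39, 10.63 and 11.05 in sham livers. Its difference MSC minus CLP was -1.14 (SE 0.29, adjusted p 0.0419), and that of the second Cd74 probe, ILMN_1247832, was -1.15 (SE 0.32, adjusted p 0.0452).

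The remaining member called lower in MSC than in CLP livers was ILMN_2607675, which has no gene symbol here. It measured 7.28 to 8.18 log2 in MSC livers (median 7.72), against 8.62 to 9.87 in CLP livers (median 8.93) and 8.90 to 10.50 in sham livers (median 9.58), and its difference MSC minus CLP was -1.30 (SE 0.29, limma adjusted p 0.0419). In all, 4 members were lower in MSC than in CLP livers. That is 4.35% of the members, close to the 2.93% of all tested probes, so lower calls were not particular to the members. These 4 kept their direction in all 21 alternatives run, but their adjusted p was above 0.05 in 16 of them. Without CLP mouse 107C, H2-Ab1 gave -1.28 (adjusted p 0.00245) and ILMN_1221817 of Cd74 gave -1.21 (adjusted p 0.00821).

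H2-DMb1, a chain of the peptide loader H2-DM, was not called in this comparison. Its difference MSC minus CLP in the liver was -0.22 (SE 0.23, limma adjusted p 0.557), and MSC minus sham was -1.35 (adjusted p 0.000611). In the lung it measured 8.65, 8.90, 9.11, 9.26 and 9.41 log2 in MSC mice, against 8.26, 8.47, 8.48, 9.05 and 9.24 in CLP mice and 9.58, 9.67, 9.83, 10.03 and 10.07 in sham mice. The MSC and CLP lungs overlapped, and no MSC lung reached a sham lung.

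**Figure D3:**
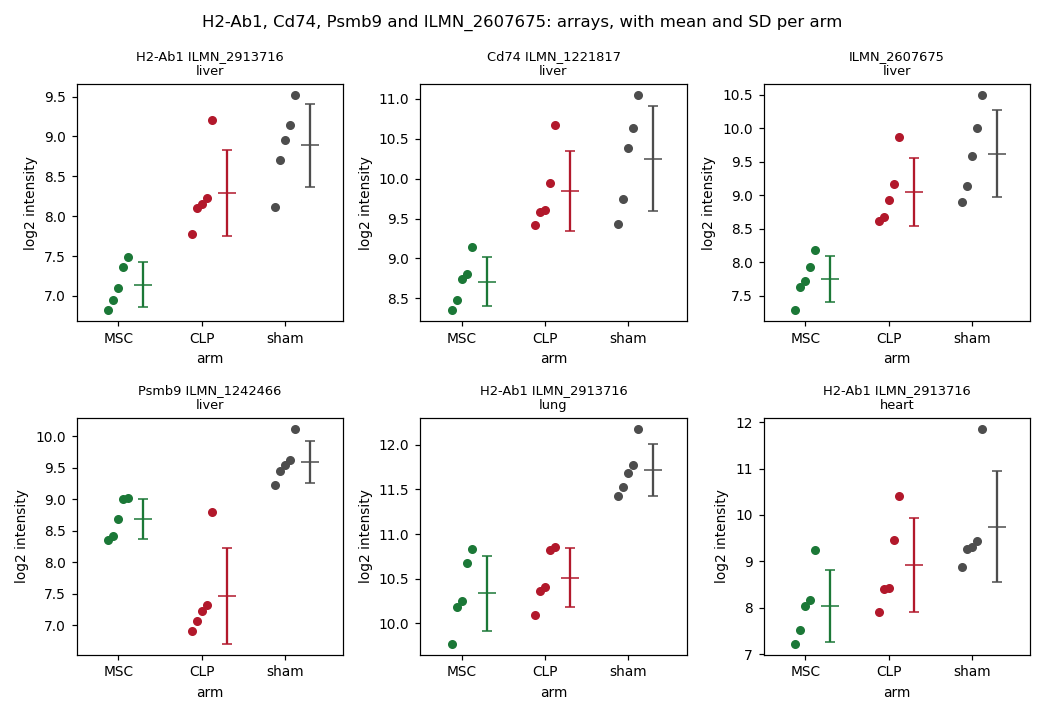
Points are arrays (log2 intensity), grouped by arm, with the mean and SD of the arm beside them (n = 5). In the liver, MSC arrays of H2-Ab1, Cd74 and ILMN_2607675 all lie below CLP arrays; Psmb9 in the liver lies higher in MSC than in 4 of 5 CLP arrays; H2-Ab1 in lung and heart shows overlapping MSC and CLP arrays.

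Outside the liver, MSC minus sham was called lower for 3 of the 4 class II probes in spleen, 4 in lung, 3 in kidney and 1 in heart. Of all tested probes, 3.68% were called lower in spleen, 4.91% in lung, 3.27% in kidney and 0.850% in heart. The class II probes not called were ILMN_1221817 of Cd74 in the spleen (-0.44, limma adjusted p 0.155), H2-DMb1 in the kidney (-0.42, adjusted p 0.249) and 3 in the heart, given below. H2-Ab1 in the lung measured 9.77, 10.18, 10.25, 10.68 and 10.83 log2 in MSC mice, against 10.09, 10.36, 10.41, 10.82 and 10.86 in CLP mice and 11.43, 11.53, 11.68, 11.77 and 12.18 in sham mice. MSC and CLP lungs overlapped, and all lay below the sham lungs; MSC minus sham was -1.38 (SE 0.20, limma adjusted p 0.000269). In the spleen, H2-Ab1 measured 12.14, 12.56, 12.63 and 12.98 log2 in MSC mice, against 12.27, 12.31, 12.74 and 12.92 in CLP mice and 13.64, 13.72, 13.91 and 13.92 in sham mice. MSC minus sham was -1.22 (limma adjusted p 0.00481) and stayed at -1.29 (adjusted p 0.0393) without the 2 arrays in dispute. With the series matrix names it was -0.71 (adjusted p 0.995). ILMN_1247832 of Cd74 gave -1.32 in the spleen (limma adjusted p 0.012). Its call was lost without the 2 arrays (-1.41, adjusted p 0.0653) and with the series matrix names (-0.80, adjusted p 0.995). In the kidney MSC minus sham was called for H2-Ab1 (-0.84, adjusted p 0.00977) and MSC minus CLP was -0.13 (adjusted p 0.635).

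In the heart each arm had a mouse well above the others. H2-Ab1 measured 7.22, 7.53, 8.04, 8.17 and 9.25 log2 in MSC hearts, against 7.92, 8.40, 8.42, 9.47 and 10.42 in CLP hearts and 8.87, 9.27, 9.31, 9.45 and 11.86 in sham hearts. The highest sham value was 78S, the highest CLP value 107C and the highest MSC value 61M. B cell markers (3 genes with 6 probes) were also highest in those mice within their arms, at 7.0 log2 in 61M, 7.75 in 107C and 6.63 in 78S. Their ranges were 5.17 to 7.0 in MSC hearts, 5.02 to 7.75 in CLP hearts and 5.40 to 6.63 in sham hearts. Only the Cd79b probe ILMN_2610822 (7.09) had a sham heart median above the detection floor of 6. T cell markers were highest in the same mice, at 6.02 in 61M, 6.91 in 107C and 9.02 in 78S. Macrophage markers were highest in 107C among CLP hearts (8.41). They were lower in 61M (8.34) than in 100M (8.46), and 78S was the lowest sham heart (7.27). MSC minus CLP was -0.88 for H2-Ab1 (SE 0.56, limma adjusted p 0.418) and -0.51 (adjusted p 0.603) without heart 107C. MSC minus sham was -1.87 for ILMN_1247832 of Cd74 (adjusted p 0.0487) and -1.43 (adjusted p 0.0499) without heart 78S. The other class II probes were not called there: H2-Ab1 gave -1.71 (limma adjusted p 0.141), or -1.19 (adjusted p 0.159) without heart 78S, and ILMN_1221817 of Cd74 gave -1.68 (adjusted p 0.188), or -1.15 (adjusted p 0.242) without it. H2-DMb1 gave -1.07 (adjusted p 0.153).

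Immune cell markers are given beside these values. In the liver, B cell markers lay at 5.19 to 5.58 log2 in MSC mice, 5.21 to 5.36 in CLP mice and 5.36 to 5.90 in sham mice, and macrophage markers (4 genes with 9 probes) at 6.45 to 8.00 in MSC mice, 6.44 to 7.53 in CLP mice and 7.34 to 7.55 in sham mice. In sham livers 5 of the 6 B cell probes lay at 4.89 to 5.89 log2, below the detection floor of 6. These averages thus rest mostly on probes that could not show a loss of B cells. The 1 B cell probe tested in the liver was called lower than sham in CLP (-1.44) and in MSC (-1.30). Both of the 2 T cell probes tested there were called lower too, with median differences of -0.86 in CLP and -0.99 in MSC. Of 8 macrophage probes tested there, 5 were called lower and 1 higher in CLP than in sham (median difference -0.81). In MSC 1 of these 8 was called lower and 1 higher than in sham (median difference -0.61). Of all probes in the liver, 20.5% were called lower in CLP and 9.84% in MSC than in sham. The shares called higher were 23.8% in CLP and 11.5% in MSC. T cell markers lay at 4.99 to 5.28 in MSC livers, 5.16 to 5.37 in CLP livers and 5.48 to 5.75 in sham livers, so the MSC and CLP ranges overlapped. In the lung, B cell markers were 6.16 to 6.37 in MSC mice and 6.27 to 6.37 in CLP mice, both below the 7.35 to 7.58 of sham mice, and T cell markers were 5.53 to 5.93 in MSC mice and 5.77 to 6.33 in CLP mice, both below the 6.37 to 6.64 of sham mice. Neutrophil markers (5 genes with 5 probes) were higher in both injured arms: 8.47 to 9.05 log2 in MSC livers and 8.31 to 9.51 in CLP livers, against 6.31 to 7.52 in sham livers. They were 11.34 to 12.14 in MSC lungs and 10.93 to 11.62 in CLP lungs, against 8.62 to 9.68 in sham lungs. In the kidney they were 7.31 to 8.13 in MSC mice and 7.16 to 8.41 in CLP mice, against 5.53 to 6.68 in sham mice, and in the heart 8.43 to 9.18 in MSC mice and 8.49 to 9.44 in CLP mice, against 6.37 to 7.90 in sham mice. Of the 4 neutrophil probes tested, all 4 were called higher in CLP than in sham in each of these organs. Median differences were 3.02 in liver, 2.37 in lung, 2.41 in kidney and 2.47 in heart. Of all probes, 23.8% were called higher in liver, 15.9% in lung, 19.9% in kidney and 8.53% in heart. In the spleen 1 of the 4 was called higher, with a median difference of 1.51, against 3.01% of all probes. The part of these cells in the members' values, class II or other, was not tested.

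Probes of the antigen presentation and interferon list (13 genes, 12 with a probe) that are not members were read from all complete rows, with the spleen arrays whose arm both tables give alike. Of its 22 such probes, the CLP minus sham difference was called lower for 3 of 19 tested in spleen (2.35% of all probes there), 5 of 17 in liver with 1 higher (20.5%), 6 of 18 in lung (16.9%), 5 of 14 in kidney with 2 higher (20.5%) and 0 of 16 in heart (9.49%; smallest limma adjusted p 0.227). The shares of all probes called higher were 23.8% in liver and 19.9% in kidney. The 5 that measure H2-Ab1, H2-Aa, H2-Eb1 and Cd74, a subset picked after their values were seen, had MSC minus CLP differences of -1.27 to -0.90 in the liver, 4 of them called (2.95% of all probes were called lower). The same 5 had differences of -1.21 to -0.74 in heart, -0.35 to 0.08 in lung, -0.39 to -0.13 in kidney and -0.20 to 0.13 in spleen, with none called by limma (smallest adjusted p 0.229, in heart). In CLP minus sham, these 5 gave 3 of the lower calls above in spleen, 5 in lung and 5 in kidney. They gave 0 of those in liver. None of the list's other probes that were tested, class I and interferon genes among them, was called in MSC minus CLP in any organ by limma.

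Psmb9 was higher in MSC than in CLP livers. It encodes an immunoproteasome subunit that cuts proteins into peptides for class I molecules, and it measured 8.35, 8.42, 8.68, 9.0 and 9.02 log2 in MSC livers, against 6.90, 7.07, 7.23, 7.32 and 8.79 in CLP livers and 9.23, 9.45, 9.55, 9.62 and 10.12 in sham livers. The MSC livers lay between the other arms apart from CLP mouse 107C at 8.79. The MSC minus CLP difference was 1.23 (SE 0.29, limma adjusted p 0.0419) and MSC minus sham -0.90 (adjusted p 0.0387). Ube2l6, the enzyme that conjugates the interferon-induced modifier ISG15, was not called and gave MSC minus CLP of 0.80 in the liver (SE 0.24, adjusted p 0.0517).

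Several detoxification members were low in MSC and CLP livers alike. Gstt1, a glutathione transferase, measured 10.38, 10.41, 10.66, 10.80 and 10.82 log2 in MSC livers, against 10.16, 10.50, 10.67, 10.97 and 11.47 in CLP livers and 11.82, 11.92, 12.09, 12.11 and 12.42 in sham livers. MSC and CLP livers overlapped fully and lay below all sham livers; MSC minus CLP was -0.14 (SE 0.21, limma adjusted p 0.688) and MSC minus sham -1.46 (adjusted p 0.000163). In the lung Gstt1 measured 9.72, 9.83, 10, 10.40 and 10.54 log2 in MSC mice, against 8.5, 8.86, 8.92, 9.35 and 10.12 in CLP mice and 10.30, 10.56, 10.66, 10.77 and 10.84 in sham mice. MSC minus CLP there was 0.95 (SE 0.24, adjusted p 0.0708) and MSC minus sham -0.53 (adjusted p 0.194). The MSC minus CLP difference of Gstt1 differed between the 4 organs (limma F-test with the mouse as block, adjusted p 0.0272).

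Nqo2 is a quinone reductase, given here by its probe ILMN_1247930. It measured 7.07, 7.98, 8.37, 8.60 and 9.13 log2 in MSC livers, against 7.03, 7.19, 8.5, 8.87 and 8.99 in CLP livers and 10.13, 10.27, 10.30, 10.39 and 10.56 in sham livers. The injured arms overlapped, with MSC minus sham at -2.10 (SE 0.39, limma adjusted p 0.00145). In the kidney it measured 7.92, 8.11, 8.59, 8.79 and 9.35 log2 in MSC mice, against 7.08, 7.14, 7.48, 7.56 and 9.18 in CLP mice and 8.89, 9.14, 9.25, 9.28 and 9.41 in sham mice. The 4 lower CLP kidneys lay below all MSC kidneys, and 107C, at 9.18, was within the sham range; MSC minus CLP was 0.86 (SE 0.34, adjusted p 0.13). The F-test of a difference between organs gave an adjusted p of 0.39 for this probe in limma.

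Mgst3, a microsomal glutathione transferase, was also lower in MSC than in sham livers (-1.83, SE 0.20, limma adjusted p 1.84e-05), with MSC minus CLP at -0.11 (adjusted p 0.75). In the heart it measured 12.51 to 12.87 log2 in MSC mice, against 12 to 12.55 in CLP mice and 11.92 to 13.12 in sham mice; the lowest sham value was 78S. Vkorc1 is the reductase that recycles vitamin K for clotting factors. It measured 12.30, 12.48, 13.28, 13.44 and 13.44 log2 in MSC livers, against 11.02, 11.27, 11.58, 11.59 and 13.52 in CLP livers and 13.57, 13.57, 13.58, 13.69 and 13.73 in sham livers. All MSC livers exceeded 4 of the 5 CLP livers, and MSC minus CLP was 1.19 (SE 0.37, adjusted p 0.0574).

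Prxl2b, a peroxiredoxin-like prostaglandin synthase, was among the members whose CLP minus sham difference varied most between organs, by 2.45 log2. It measured 6.64, 6.65, 6.97, 7.13 and 7.14 log2 in MSC livers, against 5.07, 5.27, 5.67, 5.86 and 6.79 in CLP livers and 8.63, 8.64, 8.77, 8.83 and 8.87 in sham livers. MSC minus CLP was 1.17 (SE 0.24, limma adjusted p 0.0419) and MSC minus sham -1.84 (adjusted p 9.34e-05). In the kidney it measured 8.08, 8.55, 8.99, 9.10 and 9.80 log2 in MSC mice, against 6.85, 6.88, 7.02, 7.21 and 9.24 in CLP mice and 8.97, 8.97, 9.0, 9.05 and 9.09 in sham mice. There MSC mice spanned the narrow sham range, with MSC minus sham at -0.11 (adjusted p 0.892).

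Probes of the redox and detoxification list (14 genes, 13 with a probe) that are not members were read the same way. Of its 18 such probes, CLP minus sham was called lower for 13 of 17 tested in liver with 2 higher and 3 of 14 in lung with 3 higher. It was lower for 3 of 15 in kidney with 1 higher, 1 of 15 in spleen with 2 higher and 1 of 14 in heart. Of all probes, 20.5% were called lower in liver, 16.9% in lung, 20.5% in kidney, 2.35% in spleen and 9.49% in heart. The shares called higher were 23.8%, 15.9%, 19.9%, 3.01% and 8.53%. The lower counts in lung, kidney and heart were near these shares. Between MSC and sham, 13 of 17 were lower in the liver and 2 higher, against 9.84% lower and 11.5% higher of all probes. Between MSC and CLP none was called in any organ by limma (smallest adjusted p 0.0503, in the liver). The inflammation list, set beside these for contrast, had median CLP minus sham differences of 2.89 in spleen, 1.41 in liver, 2.04 in lung, 2.72 in kidney and 3.43 in heart. Of 5 hepatocyte marker probes, 4 were called lower than sham in CLP livers (median -0.57) and 2 in MSC livers (median -0.64). Of 12 kidney tubule marker probes tested in the kidney, 9 were called lower in CLP (median -1.20) and 2 in MSC (median -0.96). Of all probes, 3.48% were called lower than sham in MSC kidneys. The part of these cells in the members' values was not tested.

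Of 8 probes of acetate, ketone, energy and vitamin metabolism, CLP minus sham was deepest in the liver for 5 and in the kidney for 3. Acss2, which turns acetate into acetyl-CoA, had the highest mean MSC minus CLP difference of all members (1.11 over the 5 organs). It measured 9.93, 10.45, 10.60, 10.61 and 10.91 log2 in MSC livers, against 7.38, 7.79, 7.95, 8.86 and 10.75 in CLP livers and 11.56, 11.71, 12.04, 12.07 and 13.64 in sham livers. The CLP mouse at 10.75 was 107C, and the other CLP livers lay below all MSC livers. The MSC minus CLP difference was 1.95 in the liver (SE 0.52, limma adjusted p 0.0427) and 1.08 on the mean of 4 organs (SE 0.26, adjusted p 0.0395). In the kidney Acss2 measured 10.44, 10.87, 11.39, 11.48 and 12.15 log2 in MSC mice, against 8.75, 9.70, 9.80, 10.26 and 11.87 in CLP mice and 11.77, 11.81, 12.03, 12.10 and 12.15 in sham mice. In liver and kidney, 16M and 44M were again the lowest MSC mice.

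Pcbd2, a dehydratase that recycles the cofactor of aromatic amino acid hydroxylases, was lower than sham by at least 1.11 log2 in every organ of CLP mice. It measured 10.38, 10.48, 10.80, 11.08 and 11.16 log2 in MSC livers, against 9.24, 9.27, 9.5, 9.95 and 10.83 in CLP livers and 11.13, 11.31, 11.34, 11.36 and 11.56 in sham livers. MSC minus CLP was 1.02 (SE 0.26, limma adjusted p 0.0419), and MSC minus sham was -0.56 (adjusted p 0.138). Oxct1, which activates ketone bodies for use as fuel, was lower in MSC than in sham kidneys (-0.99, SE 0.20, adjusted p 0.00846). Ckb, brain-type creatine kinase, was lower in MSC than in sham hearts (-0.74, SE 0.15, adjusted p 0.0121) and lungs (-0.54, adjusted p 0.0174). Cisd1, a mitochondrial outer membrane protein with an iron-sulphur cluster, was lower in MSC than in sham livers (-2.06, SE 0.31, adjusted p 0.000247).

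**Figure D4:**
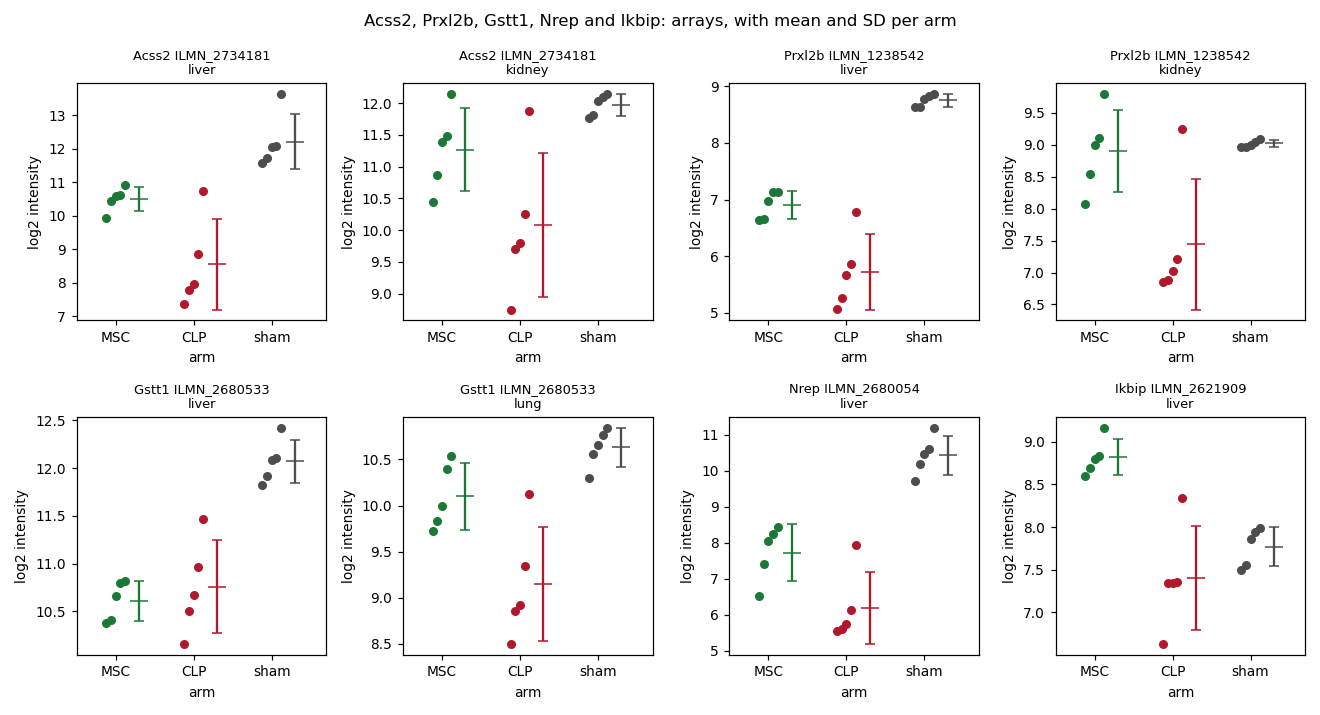
Points are arrays (log2 intensity) by arm, with mean and SD (n = 5), for Acss2 and Prxl2b in liver and kidney, Gstt1 in liver and lung, and Nrep and Ikbip in liver. Gstt1 overlaps between MSC and CLP in the liver, Acss2, Prxl2b and Nrep lie higher in MSC than in most CLP livers, and Ikbip in all MSC livers lies above all CLP and sham livers.

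Other members have roles in growth, transcription and structure. Nrep, a small protein linked to nerve regeneration and TGF-beta signalling, had a spread of 3.70 log2 between organs in CLP minus sham. It measured 6.51, 7.40, 8.04, 8.25 and 8.43 log2 in MSC livers, against 5.55, 5.60, 5.75, 6.12 and 7.93 in CLP livers and 9.71, 10.20, 10.46, 10.62 and 11.19 in sham livers. The MSC minus CLP difference was 1.54 (SE 0.44, limma adjusted p 0.0495), while MSC minus sham stayed at -2.70 (adjusted p 0.000502). In the lung, by contrast, Nrep gave MSC minus CLP of -0.02 (SE 0.13), and MSC minus sham was -1.48 (adjusted p 1.72e-06). Its MSC minus CLP difference differed between organs (F-test adjusted p 0.0229).

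Tcea3, a transcription elongation factor of the TFIIS family, was the member furthest below sham in MSC livers. It measured 7.88, 8.36, 8.72, 8.82 and 9.26 log2 in MSC livers, against 7.76, 8.53, 9.30, 9.53 and 9.80 in CLP livers and 11.93, 12.03, 12.27, 12.28 and 12.30 in sham livers. The injured arms overlapped, and MSC minus sham was -3.56 (SE 0.32, limma adjusted p 2.65e-06). Dleu2, a long non-coding RNA that hosts microRNAs, had the second highest mean MSC minus CLP difference (1.07). In the heart it measured 8.33, 8.65, 8.97, 9.16 and 9.19 log2 in MSC mice, against 7.37, 7.60, 7.65, 8.33 and 8.82 in CLP mice and 8.73, 8.99, 9.03, 9.29 and 9.43 in sham mice. Spleens of both injured arms spread widely, at 5.90, 6.23, 8.27 and 8.33 log2 in MSC mice and 5.92, 5.97, 6.32 and 8.86 in CLP mice, against 8.94, 9.0, 9.12 and 9.17 in sham mice.

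Cavin2, a coat protein of caveolae in endothelium and fat, had its highest sham level in the lung. It measured 12.67, 13.29, 13.31, 13.48 and 13.67 log2 in MSC lungs, against 11.18, 11.72, 12.33, 12.59 and 13.78 in CLP lungs and 13.91, 13.92, 14.14, 14.14 and 14.20 in sham lungs. No injured lung reached a sham lung, and 107C was the only CLP lung above an MSC lung. MSC minus CLP was 0.96 in the lung (SE 0.34, limma adjusted p 0.0995), 1.61 in the liver (SE 0.36, adjusted p 0.0419) and 1.02 on the mean of 4 organs (adjusted p 0.0409). Fbln1, a matrix glycoprotein, was lower in MSC than in sham lungs (-1.40, SE 0.21, adjusted p 0.000467).

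Ikbip, a protein first described as a partner of the kinase IKK beta, was the only member called higher in MSC than in sham, in the liver. It measured 8.60, 8.69, 8.80, 8.83 and 9.16 log2 in MSC livers, against 6.63, 7.34, 7.35, 7.36 and 8.34 in CLP livers and 7.5, 7.56, 7.86, 7.94 and 7.99 in sham livers. Every MSC liver lay above every CLP and sham liver. Between MSC and CLP the difference was 1.41 (SE 0.23, limma adjusted p 0.0419) and MSC minus sham 1.04 (SE 0.23, adjusted p 0.00503). In the other organs MSC minus sham was -0.70 in spleen, -0.25 in lung, -0.27 in kidney and -0.07 in heart, none of them called. Its MSC minus CLP difference differed between the 4 organs (F-test adjusted p 0.00655).

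Alas2, the first enzyme of haem synthesis in red cell precursors, was highest in the spleen, where it ranged widely. It measured 10.60, 11.27, 13.91 and 14.02 log2 in MSC spleens, against 10.92, 11.19, 11.19 and 12.28 in CLP spleens and 12.88, 13.11, 13.33 and 13.65 in sham spleens. The lowest to the highest MSC spleens were MSC7, MSC4, MSC8 and MSC5. The arm of MSC8 (13.91) and of sham s2 (13.11) differs between the 2 tables. Both arrays are included in these values and in those of the next probe. ILMN_3161601, which has no symbol here, placed the MSC spleens in the same order, at 9.26, 10.08, 12.51 and 12.83 log2, against 9.30, 9.55, 9.86 and 11.08 in CLP spleens and 11.81, 12.01, 12.34 and 12.68 in sham spleens. Other erythroid markers (2 genes) averaged 13.87 to 15.70 log2 in MSC spleens, 13.84 to 15.24 in CLP spleens and 14.48 to 15.14 in sham spleens over the arrays whose arm is the same in both tables, and their part in the Alas2 values was not tested. In the lung Alas2 was called lower in MSC than in sham (-1.24, SE 0.20, limma adjusted p 0.000793).

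Further members without a symbol were low in CLP mice by more than 2-fold in every organ. ILMN_1232391 measured 7.27, 7.60, 8.02, 8.12 and 8.14 log2 in MSC kidneys, against 5.81, 6.22, 6.29, 7.17 and 8.27 in CLP kidneys and 8.37, 8.40, 8.46, 8.54 and 8.59 in sham kidneys. Its MSC minus CLP difference on the mean of 4 organs was 0.96 (SE 0.29, limma adjusted p 0.0433). ILMN_2785104 measured 8.01 to 9.14 log2 in MSC lungs, against 6.88 to 8.97 in CLP lungs and 9.22 to 9.80 in sham lungs. ILMN_1249220 measured 7.31 to 9.55 log2 in MSC lungs, against 6.76 to 8.23 in CLP lungs and 9.83 to 10.38 in sham lungs, and stayed below sham in MSC hearts (-1.01, SE 0.24, adjusted p 0.0351). In both probes no injured lung reached a sham lung.

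The members were grouped by role after their values were seen. Of all members, 46.7% were called higher in MSC than in CLP on the mean of 4 organs, against 6.18% of all probes, and 21.7% in the liver, against 3.03% of all probes. Low CLP arrays chose the members, which tilts MSC minus CLP upward. These shares and the group counts below therefore partly follow from the choice. Of 12 probes of membranes and transport, 10 were called higher in MSC than in CLP on the mean of 4 organs; of 5 cytoskeleton probes, 5 were. In the liver 4 of the 5 cytoskeleton probes were called, among them the microtubule-binding Mapre2 (1.11) and Dpysl2 (1.10). Of 4 class II probes, 0 were called higher, and of 6 detoxification probes, 1 was. The median MSC minus sham difference in the liver was -1.65 for class II and -1.81 for detoxification, against -0.43 for the cytoskeleton and -0.50 for membranes and transport. The corresponding CLP minus sham medians in the liver were -0.79, -1.90, -1.62 and -1.25. No group was tested against another.

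**Figure D5:**
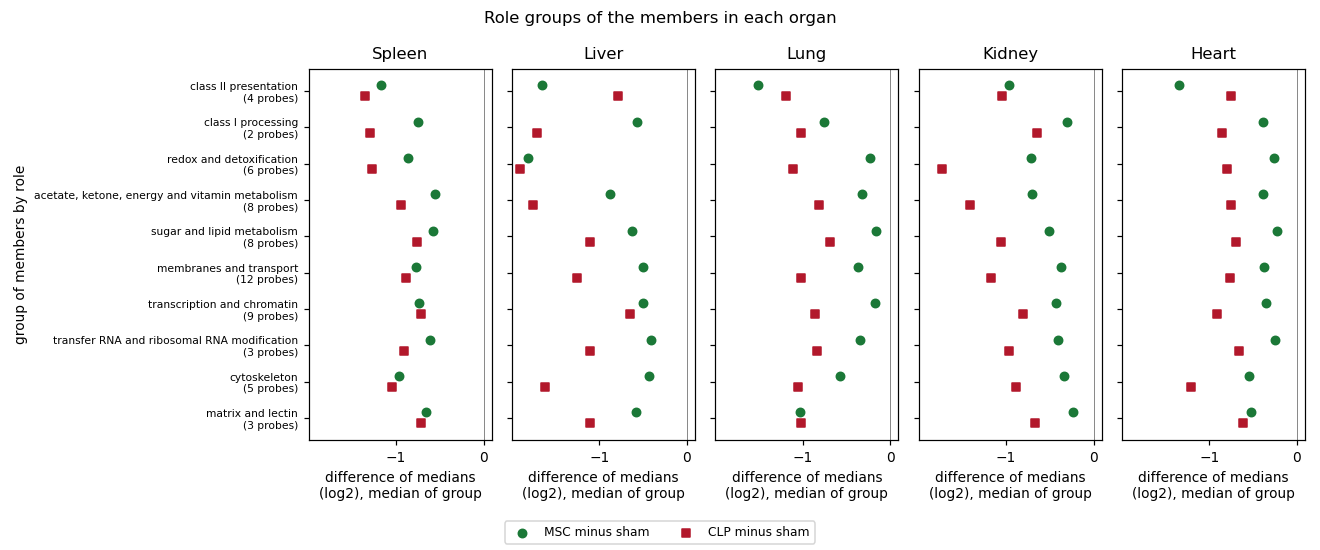
For each role group (rows, with the number of probes) and organ (panels), circles give the median over its probes of MSC minus sham and squares that of CLP minus sham, as differences of arm medians (log2). In the liver the class II circle lies at -1.65, left of its square at -0.79, while the cytoskeleton circle lies at -0.43, right of its square at -1.62.

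The MSC minus CLP difference of 14 members differed between liver, lung, kidney and heart by the F-test. They are 15.2% of the members, near the 11.0% of all probes called. The liver had the highest difference for 9 of them, among them the coatomer subunit Copz2 (1.11 in liver, 0.74 in lung, 0.46 in kidney and 0.40 in heart with probe ILMN_2878274). The lung was highest for 2 and the kidney for 2, while the heart was highest for Zmat1, a zinc finger protein (1.40, against 0.80 in liver, 0.58 in lung and 0.64 in kidney). Without CLP mouse 107C the number was 38, and without the mouse as a block it was 0. The members were chosen by CLP arrays that enter this test too.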

How the data were processed

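The series holds 72 Illumina arrays. The deposited text table gives log2 values, as its range of 0.0144 to 16.03 shows; the scanner normalization is not given in the sources used here. Of its 45255 complete rows, 22751 are offset by 12 columns against the header and were not used for members. The deposited series matrix holds the same log2 values with each probe's spleen and other-organ means moved to their midpoint; undoing that shift gave the values for probes outside the 22504 usable rows. The tables disagree on the arm of 2 spleen arrays, and 1 CLP spleen column (called B here) could be matched to its group only. Symbols came from GEO's platform annotation: 17370 of the 22504 probes have 1 symbol, 7 have several and 5127 have none.

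limma 3.58.1 in R 4.3.3 was fitted to the 3 arms of each organ together, on probes that exceeded 6 log2 in a number of arrays no smaller than the smallest arm, with Benjamini-Hochberg adjustment over all tested probes. The mean of 4 organs per mouse and an F-test of organ by arm, with the mouse as block, used the 15 numbered mice. Their numbers pair the organs by label. Deviations of the same mouse from the arm means correlated between organs at a mean r of 0.21 over 6826 probes. The mean r of a mouse ran from 0.08 to 0.47, and the lowest r of a pair of organs was -0.13. Different mice of an arm gave -0.05, which follows largely from taking deviations from the arm means and is no separate baseline. In a test on simulated data with 200 changed probes, 67% to 97% of probes changed by 1 log2 unit between MSC and CLP were recovered. Of the calls, 1.02% (lung) to 9.61% (spleen) were false. The simulated noise was drawn for each probe separately. It does not cover a shift shared by many probes of 1 mouse, as in CLP mouse 107C. The labels do not say how the 4 spleens per arm relate to the numbered mice. The number of arrays limits the precision.

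The members and the gene lists were chosen with earlier results of these data known. The genes given in full are the 8 with the lowest shallowest CLP minus sham difference, the 4 with the largest spread between organs, the 3 highest and 3 lowest by mean MSC minus CLP, and members in a list. Psmb9, Ube2l6, Mgst3, Vkorc1, Cavin2, Ikbip, Alas2, H2-DMb1 and other genes outside that rule, the role groups and the class II subset were picked after their values were seen. Alternatives changed the filter, the array weights, the arms fitted, the scaling, the variance trend, the block, the rule's limits and each replicate; those on the spleen labels, on all complete probes and on heart array 78S were chosen after seeing the data.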

Additional observations from a re-analysis of the deposited data

Results flagged for a closer look

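Of 108 groups of 4 or 5 arrays examined, 13 had an array set apart from the rest of its group by a gap that chance gives in about 1 in 20 groups. CLP mouse 107C was that array for Psmb9 in the liver (8.79 log2), Vkorc1 in the liver (13.52), Nrep in the liver (7.93), Nqo2 in the kidney (9.18), Prxl2b in the kidney (9.24) and the median of the members in the liver (-0.42 relative to sham), each time the highest of its arm. Sham heart 78S was the highest sham heart for H2-Ab1 (11.86 log2) and for ILMN_1221817 of Cd74 (13.55), and the lowest for Mgst3 (11.92) and for the median of the members (-0.46). The others were Acss2 in sham liver 21S (13.64 log2), Dleu2 in the CLP spleen called B (8.86) and the median of the members in sham kidney 22S (-0.10). The median of the members in a sham array is taken relative to those same sham arrays, which holds it near 0. The rate of 1 in 20 therefore does not apply to these sham medians. The groups also share mice and are not independent.

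The MSC minus CLP difference varied between liver, lung, kidney and heart for 14 of the 92 probes by the limma F-test with the mouse as block, which is 15.2% of them, near the 11.0% of all probes. The adjusted p was 0.00655 for Ikbip, 0.016 for Zmat1, 0.0174 and 0.0245 for the 2 Nagk probes, 0.0178 for Prxl2b, 0.0185 for Sh3glb2, 0.0229 for Nrep, 0.0254 for Nt5dc2, 0.0272 for Gstt1, 0.0295 for Cavin2, 0.0336 and 0.0419 for the 2 Copz2 probes, 0.0365 for Jmjd8 and 0.0416 for Rmnd1. Rmnd1 had its highest difference in the kidney (0.94, against 0.20 in liver, 0.26 in lung and 0.16 in heart), and Nagk in the liver (1.20, against 0.33 in the heart with ILMN_2616461).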

How the results depend on the processing

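The main counts, with the range when each array or mouse was left out, were 15 (6 to 21) for MSC minus sham in spleen, 38 (28 to 54) in liver, 20 (18 to 32) in lung, 10 (6 to 37) in kidney, 6 (3 to 13) in heart and 35 (23 to 68) on the mean of 4 organs. For MSC minus CLP they were 0 (0 to 0) in spleen, 20 (0 to 57) in liver, 0 (0 to 70) in lung, 0 (0 to 71) in kidney, 0 (0 to 32) in heart and 43 (0 to 80) on the mean, and for the F-test between organs 14 (2 to 38). Array weights gave 26, 37, 45, 39 and 78 for MSC minus sham in spleen, lung, kidney, heart and mean, and 54, 58, 69, 30 and 79 for MSC minus CLP in liver, lung, kidney, heart and mean, with 45 in the F-test. Fitting only the 2 compared arms gave 60, 41, 43 and 76 for MSC minus sham in liver, lung, kidney and mean, and 0, 3 and 0 for MSC minus CLP in liver, heart and mean. Without the filter on dim probes, MSC minus CLP gave 0 in liver and 0 on the mean, MSC minus sham 6 in kidney and 3 in heart, and the F-test 4. With the mouse as a random replicate block over 60 arrays the mean gave 69 for MSC minus CLP and 62 for MSC minus sham, and without the replicate block the F-test gave 0. In the spleen, MSC minus sham gave 0 with the series matrix values, 0 with its labels and 3 without the 2 disputed arrays. The rule gave 54 probes at a limit of -0.6, 55 with a sham median above 8, 160 over all 45255 complete probes with the series matrix labels, and 69 to 121 when 1 array or mouse was left out. H2-Ab1, ILMN_2607675, both Cd74 probes and Acss2 kept their direction in the liver in all 21 alternatives, and each lost its call in 16. Gstt1 in the liver, not called, ranged from -0.29 to 0.04 when 1 array was left out and changed sign without CLP 35C (0.04, adjusted p 0.925). The cause of these changes was not tested.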
